A study of Homo sapiens with 104 samples.

Results

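The genes described here are 10 markers of the human B-cell surface: MS4A1, LAPTM5, CD53, CD37, FCER2, CR2, CD27, CD24, CD38 and TNFRSF17. They were matched as the probe sets that carry a member's symbol and no other in the platform annotation. This gave 10 of 19775 annotated genes, with 24 of 54675 probe sets, and all 10 genes passed the filter that left 13842 genes for testing. Of their 24 probe sets 22 passed as well, and the others, 1 of CD37 and 1 of CR2, lay near the bottom of the scale. Another probe set stands for each of these genes.

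RNA was measured on Affymetrix oligonucleotide arrays in 26 human lymphoblastoid cell lines, which are B-cell lines grown in culture. The groups were the lines MT1 and TK6, each after exposure to MNNG and untreated, and a panel of 24 numbered lines in the same 2 conditions, with 2 arrays per line and condition. TK6 is an established lymphoblastoid line, and MT1 derives from it by selection for resistance to alkylating agents and lacks mismatch repair, so each of these is 1 line and not a set of independent lines. MNNG (N-methyl-N'-nitro-N-nitrosoguanidine) is a DNA methylating agent. Every line was grown to mid log phase, the sources used here give neither dose nor exposure time, and the labels do not say whether duplicate arrays came from separate cultures, so the p-values may measure technical spread only.

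Levels are log2 of the deposited intensity plus 16 after quantile normalisation, on a scale whose bottom is 5, and 1 unit is a doubling of the intensity plus 16. A gene whose level is under 6 is called near the bottom here, and a difference that starts or ends there is a lower bound. Gene levels of different probe sets are not set against each other, and a higher level of one gene does not show more of its transcript than of another. Differences were tested with limma (linear models with moderated variances), with Benjamini-Hochberg adjustment over all 13842 genes, and a gene was called at an adjusted p below 0.05.

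Of the MNNG arrays, 22 (21 of the panel and 1 of MT1) were left out because 2 probe sets of the spiked-in cre transcript disagreed by 5.19 to 6.45 log2 units, while in the 82 arrays kept they differed by 0.082 to 0.83 units in the other direction. This left 19 panel lines with an MNNG array, 8 of them with both and 11 with 1. Duplicates correlated over all genes at 0.959 to 0.997, and the median intensity of an array was 16.0 to 64.4. The lowest deposited intensity was 16.0 as well, so the lowest array medians lay at this floor, among both the untreated and the kept MNNG panel arrays. B-cell identity was checked with CD79A and CD79B (signalling chains of the B-cell receptor), CD22 and the transcription factor PAX5. CD79A was at 10.29 to 10.97 and PAX5 at 9.75 to 11.10 in the 26 untreated lines, and the lowest of them had CD79B at 7.43 and CD22 at 7.80, both in MT1. Of 8 T and NK cell markers, 6 were below 6 in MT1 and 4 in TK6, with NKG7, a cytotoxic granule protein, at 6.18 in MT1 and 9.07 in TK6. CD2, another of these 8, reached 7.90 in its highest line. Of 7 myeloid markers 6 were below 6 in both lines, and LYZ was at 6.48 in MT1 and 7.79 in TK6, with 8.27 in its highest line. Of 5 plasma cell markers 1 was below 6 in MT1 and 2 in TK6. Among these JCHAIN was at 5.25 in MT1 and 5.29 in TK6, against a median of 10.47 over the 26 lines. Of 6 fibroblast and epithelial markers 4 were below 6 in both lines, and the keratin gene KRT8 was at 9.63 in MT1 and 9.84 in TK6. Their part in the results was not tested.

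These proteins mark stages and functions of B cells. CD20 (MS4A1) is a membrane protein of nearly all mature B cells and the target of rituximab, CD53 and CD37 are leukocyte tetraspanins, and LAPTM5 is a lysosomal membrane protein of blood cells that lowers the antigen receptor at the surface. CD21 (CR2) binds complement fragments and is the entry receptor of Epstein-Barr virus, and CD23 (FCER2) is the low-affinity IgE receptor; both are raised by the viral protein EBNA2 through the DNA-binding protein RBPJ when the virus transforms B cells. CD27 binds CD70 and marks memory B cells, CD24 is a lipid-anchored glycoprotein, CD38 is an enzyme that cleaves NAD at the surface, and TNFRSF17 (BCMA) is the receptor of the survival factors BAFF and APRIL on plasma cells. The genes lie apart in the genome (RefSeq, GRCh38.p14): MS4A1 at chr11:60455847-60470752, LAPTM5 at chr1:30732469-30757774, CD53 at chr1:110871210-110899922, CR2 at chr1:207454328-207489892, CD27 at chr12:6443892-6451713, CD24 at chr6:106969831-106976855, CD38 at chr4:15778328-15853232 and TNFRSF17 at chr16:11965210-11968068. CD37 (chr19:49335406-49340606) and FCER2 (chr19:7688776-7702131) share a chromosome at a distance, as LAPTM5, CD53 and CR2 do.

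RefSeq promoter entries were found for 7 of the 10 members, and those of 5 are shown. LAPTM5 and FCER2 fell most in MT1 among the members with a RefSeq promoter entry. CR2 was near the bottom in MT1 and TK6, and CD53 and CD38 each moved with another member across lines. CD27 and CD24, which were also near the bottom in MT1 and TK6, have entries that are not shown. CD53 and FCER2 each have 1 further entry, with another start, that is not shown. Each is the 250 bases before the annotated start (RefSeq, GRCh38.p14, 5′ to 3′ on the gene's strand), and capitals mark matches on either strand to ATTTGCAT (the octamer of POU2F2 and its relatives), GAGGAA (a PU.1 core) or TGGGAA (an RBPJ core). The windows are chr1:30757775-30758024 on the minus strand for LAPTM5, chr19:7702132-7702381 on the minus strand for FCER2, chr1:207454078-207454327 on the plus strand for CR2, chr1:110870960-110871209 on the plus strand for CD53 and chr4:15778078-15778327 on the plus strand for CD38.
LAPTM5: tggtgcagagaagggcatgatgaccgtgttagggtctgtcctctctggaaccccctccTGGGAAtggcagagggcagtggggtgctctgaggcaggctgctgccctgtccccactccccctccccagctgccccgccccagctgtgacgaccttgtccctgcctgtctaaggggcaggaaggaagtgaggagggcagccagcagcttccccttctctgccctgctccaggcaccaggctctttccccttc
FCER2: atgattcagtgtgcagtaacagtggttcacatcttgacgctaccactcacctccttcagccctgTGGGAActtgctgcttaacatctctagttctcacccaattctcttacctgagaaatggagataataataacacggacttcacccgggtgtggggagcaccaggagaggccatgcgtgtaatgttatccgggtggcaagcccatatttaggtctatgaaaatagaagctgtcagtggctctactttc
CR2: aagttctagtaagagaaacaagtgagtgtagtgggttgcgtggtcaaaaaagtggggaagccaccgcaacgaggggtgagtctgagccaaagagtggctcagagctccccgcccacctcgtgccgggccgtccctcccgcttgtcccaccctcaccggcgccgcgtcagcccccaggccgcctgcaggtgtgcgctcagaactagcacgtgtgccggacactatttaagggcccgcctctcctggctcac
CD53: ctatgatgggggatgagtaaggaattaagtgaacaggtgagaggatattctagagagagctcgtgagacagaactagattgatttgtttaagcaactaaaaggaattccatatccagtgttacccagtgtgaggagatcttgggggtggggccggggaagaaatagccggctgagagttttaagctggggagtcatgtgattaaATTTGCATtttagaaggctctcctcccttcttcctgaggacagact
CD38: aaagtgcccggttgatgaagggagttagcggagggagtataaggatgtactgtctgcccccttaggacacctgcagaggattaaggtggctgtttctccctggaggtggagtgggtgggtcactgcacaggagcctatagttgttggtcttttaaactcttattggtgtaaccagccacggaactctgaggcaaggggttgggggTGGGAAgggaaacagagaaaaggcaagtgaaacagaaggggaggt
The octamer in CD53 lies 46 to 39 bases before its start, and 1.63% of 35116 RefSeq promoter windows of this length hold it. TGGGAA lies 192 to 187 bases before the start of LAPTM5, 186 to 181 before that of FCER2 and 45 to 40 before that of CD38, and 20.8% of the windows hold it. GAGGAA, held by 23.6%, has no match in these 5 windows, and CR2 has no match to any of the 3. The CD53 window that is not shown holds 2 matches to GAGGAA and 1 to TGGGAA, and that of FCER2 holds 1 to TGGGAA. The CD27 window and some of the CD24 windows, also not shown, hold TGGGAA as well. The motifs do not overlap, and a match is a string of letters and not a bound site.

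In untreated panel lines the 10 genes differed widely in how much they varied. LAPTM5 and CD53 had ranges of 0.59 and 0.60 log2 units between the lowest and the highest line, below the median of 0.80 over all genes, and MS4A1 (1.16) and CD37 (1.53) lay above it. The other 3 MS4A1 probe sets gave wider ranges of 1.56 to 2.13. CR2, CD27, FCER2, CD24 and CD38 differed between lines by 9.67-fold or more, and TNFRSF17 by 3.74-fold. All 10 passed limma's F test between lines (8 with arrays centred on their medians, where CD37 and LAPTM5 did not), against 68.1% of all genes tested, so the call alone sets them little apart, whereas 5 of 10 also had a range of at least 4-fold, against 9.11% of all genes. The median range was 2.59 log2 units over the 10 genes and 0.80 over all genes. RNA of whole cultures was measured, so fewer cells of a type and less RNA per cell cannot be told apart.

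**Figure D1:**
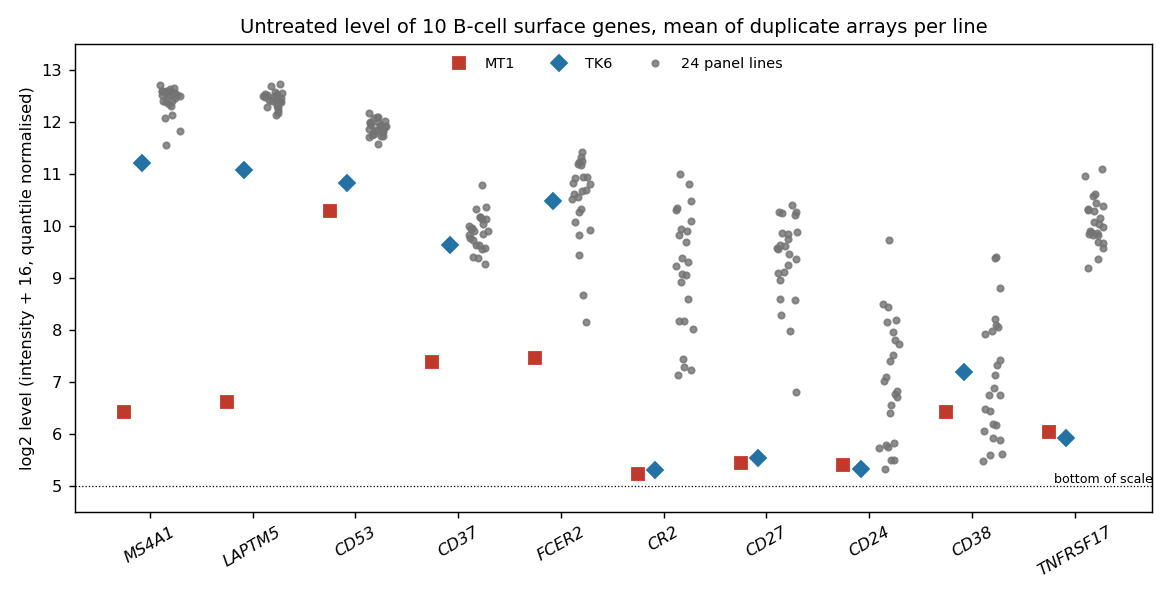
Untreated log2 level (vertical axis) of the 10 genes, as the mean of duplicate arrays, in MT1 (red squares), TK6 (blue diamonds) and the 24 panel lines (grey points). MS4A1 lies at 6.41 in MT1 and 11.21 in TK6, and CR2, CD27 and TNFRSF17 lie lower in both MT1 and TK6 than in each panel line.

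The plot of untreated levels shows this order. MS4A1 was at 11.55 in its lowest panel line (line 20), 12.51 at the median and 12.71 in its highest (line 21; F test adjusted p = 1.35e-19). The arrays of line 20 read 11.52 and 11.59, against 12.76 and 12.67 in line 21, so these lines did not overlap. LAPTM5 ranged from 12.13 (line 9) to 12.72 (line 20) around a median of 12.44, with an adjusted p of 1.37e-05. CD53 lay between 11.57 (line 11) and 12.17 (line 20), with a median of 11.91 and an adjusted p of 1.86e-09. CD37 lay between 9.27 (line 1) and 10.79 (line 23), with a median of 9.91 and an adjusted p of 0.00062. Its duplicates differed by almost as much as its lines (SD 0.32 within and 0.35 between lines), and no neighbours in its order of lines lay more than 2 duplicate SDs apart. Neighbours in the order lay more than 2 duplicate SDs apart at 8 of 23 gaps for CD24, 7 each for CR2 and CD38, 4 for CD27, 3 for MS4A1, 2 for FCER2 and 1 for TNFRSF17. For LAPTM5 the order of neighbouring lines was not resolved at any gap, and for CD53 it was at 1.

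CR2, the CD21 gene, was lowest in line 24 at 7.13 and highest in line 11 at 11.00, with a median of 9.27, a 14.6-fold range and an adjusted p of 2.09e-34. Its duplicates read 7.12 and 7.15 in line 24 and 10.99 and 11.02 in line 11, and 4 lines were separated from the others by a gap between 7.44 (line 15) and 8.02 (line 1). FCER2, the CD23 gene, was also lowest in line 24, at 8.14, with a median of 10.68 and a highest level of 11.42 in line 21 (9.67-fold, adjusted p = 2.03e-18). Lines 24 and 1 stood below the rest for FCER2, with the next line at 9.45. CD27, the CD70 receptor, was lowest in line 1 at 6.81, with a median of 9.57 and a highest level of 10.40 in line 20 (12.1-fold, adjusted p = 1.80e-24). Line 1 alone stood 1.17 below the next line for CD27.

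CD24 spread from 5.32 (line 6) to 9.73 (line 15) around a median of 6.91, at least 21.4-fold (adjusted p = 2.43e-34), and was near the bottom in 7 lines. Line 15 stood alone for CD24 with arrays at 9.78 and 9.69, and the next line was at 8.49. All 6 CD24 probe sets gave ranges of 2.73 to 4.42 log2 units. CD24 has near-identical copies elsewhere in the genome and all of its probe sets are of the kinds that can match several transcripts, so its values are uncertain. Probe sets of such a kind also stand for CR2, FCER2, CD38 and LAPTM5. CD38, the NAD-cleaving enzyme, spread from 5.47 (line 11) to 9.40 (line 2) around a median of 6.81, at least 15.2-fold (adjusted p = 6.72e-33), and was near the bottom in 5 lines. In lines 2 and 14 CD38 was at 9.40 and 9.38, and the next line was at 8.79. TNFRSF17, the BAFF and APRIL receptor, ranged from 9.19 (line 23) to 11.09 (line 11) around a median of 10.01 (adjusted p = 2.11e-16).

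The 45 pairs of genes were compared for their untreated levels over the 24 panel lines, with 100000 permutations per pair, two-sided, and adjustment over the 45. Of these, 2 pairs passed. CD37 and CD53, both tetraspanins, were high in the same lines. Pearson's r was 0.804 and Spearman's rho 0.836, each with a permutation p of 1e-05, the smallest these permutations can give, and 0.00045 after adjustment. Leaving out the 2 lines farthest from the median of CD37 gave r = 0.795. FCER2 and CD38 ran opposite ways, with r at -0.658 (permutation p = 0.00043, 0.00967 adjusted) and rho at -0.701 (permutation p = 0.00021, 0.00472 adjusted). Leaving out the 2 lines farthest from the median of FCER2 gave r = -0.707. Both pairs kept their sign and call with either replicate alone. CR2 and FCER2, which share a viral activator, had r = 0.49 and did not pass, and the median r of the 45 pairs was -0.031.

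**Figure D2:**
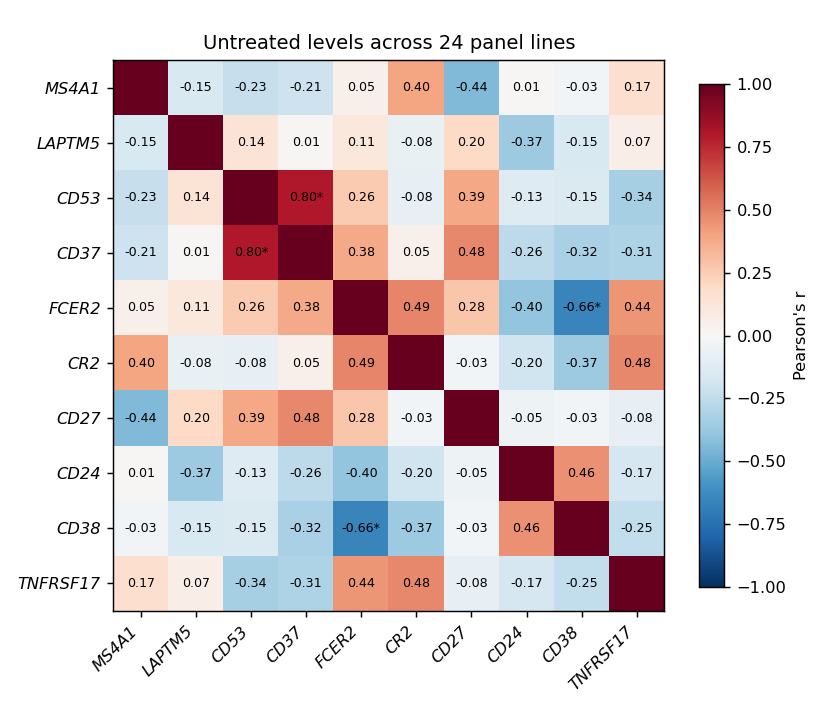
Pearson's r between untreated levels of each pair of the 10 genes over the 24 panel lines (colour and printed value, blue for negative and red for positive), with an asterisk on the pairs that passed after adjustment. CD37 with CD53 (0.80) and FCER2 with CD38 (-0.66) are the marked pairs.

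The median intensity of the arrays moved with some of these levels. Over the 24 lines, the mean log2 array median correlated with FCER2 at r = 0.682 (permutation p = 0.00013, 0.00130 adjusted over the 10 genes) and rho = 0.603 (permutation p = 0.00195, 0.00975 adjusted), and r was 0.529 without the 2 outermost lines. With TNFRSF17 it was r = 0.653 (permutation p = 0.00045, 0.00225 adjusted) and rho = 0.682 (permutation p = 0.00031, 0.0031 adjusted), and r was 0.624 without the 2 outermost lines. For CD38 it was r = -0.461 (permutation p = 0.0240, 0.0800 adjusted) and rho = -0.438 (permutation p = 0.0337, 0.112 adjusted), with r = -0.472 without those lines, and for CD37 and CD53 r was 0.026 and -0.047. The part of array intensity in the FCER2 and CD38 relation was not tested.

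The genes whose untreated level was most like each member's over the 24 lines are a description with no test. CR1, the neighbouring complement receptor gene, followed CR2 (r = 0.748), and BTK, a kinase of the B-cell receptor, followed CD27 (r = 0.714). CD38 had NCOA2 (0.900), F13A1 (0.893) and SYAP1 (0.887), FCER2 had RSPH3 (0.830) and TNFRSF17 had ACADSB (0.874). CD37 was followed by CCNB1IP1 (0.835), CD53 by VCF2 (0.810), CD24 by MNS1 (0.791), MS4A1 by MRPL50 (0.749) and LAPTM5 by ATG2A (0.713).

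The CD20 gene MS4A1, LAPTM5 and the CD23 gene FCER2 were far lower in MT1 than in its parent TK6. Of the 10 genes 6 were lower in untreated MT1 than in untreated TK6 and none was higher, where 25.2% of all genes were called, 13.6% higher and 11.7% lower in MT1. The median difference was -0.67 over the 10 genes and 0.012 over all genes. In order of size the genes that passed were MS4A1, LAPTM5, FCER2, CD37, CD38 and CD53.

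MS4A1, the CD20 gene, read 6.45 and 6.37 in the untreated MT1 arrays, against 11.28 and 11.14 in the TK6 arrays. The deposited intensities of MS4A1 were 69.2 and 42.3 in MT1, against 2552 and 2248 in TK6. The difference in MS4A1 was -4.80 ± 0.060 (MT1 minus TK6, log2 ± SE, n = 2 arrays each, limma adjusted p = 6.50e-41), and only 1 of 13842 genes was lower. With every MNNG array included in the model the MS4A1 difference was -4.74 and did not pass (limma adjusted p = 0.497), and 2 of the 10 genes were called. The other 3 MS4A1 probe sets gave -4.28, -4.26 and -2.62, and all passed, where 20.5% of 28768 probe sets did.

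LAPTM5 read 6.49 and 6.74 in MT1, against 10.91 and 11.23 in TK6. The LAPTM5 difference was -4.46 ± 0.093 (limma adjusted p = 4.68e-33), next after MS4A1 among all genes, and its other probe set gave -4.36. Both lines also lay below the panel for LAPTM5, whose lowest panel line was at 12.13.

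FCER2 read 7.37 and 7.54 in MT1, against 10.31 and 10.65 in TK6, a difference of -3.02 ± 0.19 (limma adjusted p = 2.61e-16). Both FCER2 probe sets gave a fall, and TK6 lay inside the panel while MT1 lay below each panel line. CD37 read 7.25 and 7.52 in MT1, against 9.37 and 9.88 in TK6, a difference of -2.24 ± 0.27 (limma adjusted p = 7.25e-09). For CD37 too, TK6 lay among the panel lines and MT1 below them.

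CD53 and CD38 differed less. CD53 read 10.21 and 10.35 in MT1, against 10.80 and 10.87 in TK6, a difference of -0.56 ± 0.065 (limma adjusted p = 5.60e-09). Another CD53 probe set gave -0.75 and passed, and its weakest one gave -0.048 and did not. CD38 read 6.39 and 6.43 in MT1, against 7.38 and 6.99 in TK6, a difference of -0.78 ± 0.11 (limma adjusted p = 2.83e-07).

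CR2, CD27 and CD24 were near the bottom in both lines, so no difference could be measured: CR2 was at 5.22 in MT1 and 5.31 in TK6, CD27 at 5.44 in MT1 and 5.52 in TK6, and CD24 at 5.40 in MT1 and 5.31 in TK6. TNFRSF17 was close to it as well, at 6.03 in MT1 and 5.91 in TK6, a difference of 0.12 that did not pass (limma adjusted p = 0.603). In the panel these levels started at 7.13 for CR2, 6.81 for CD27 and 9.19 for TNFRSF17. Both lines were below all 24 panel lines for 6 of the 10 genes (MS4A1, LAPTM5, CD53, CR2, CD27 and TNFRSF17), against 10.2% of all genes, and above all of them for none, against 9.87% of all genes. These positions compare 2 related lines with 24 others and were not tested.

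**Figure D3:**
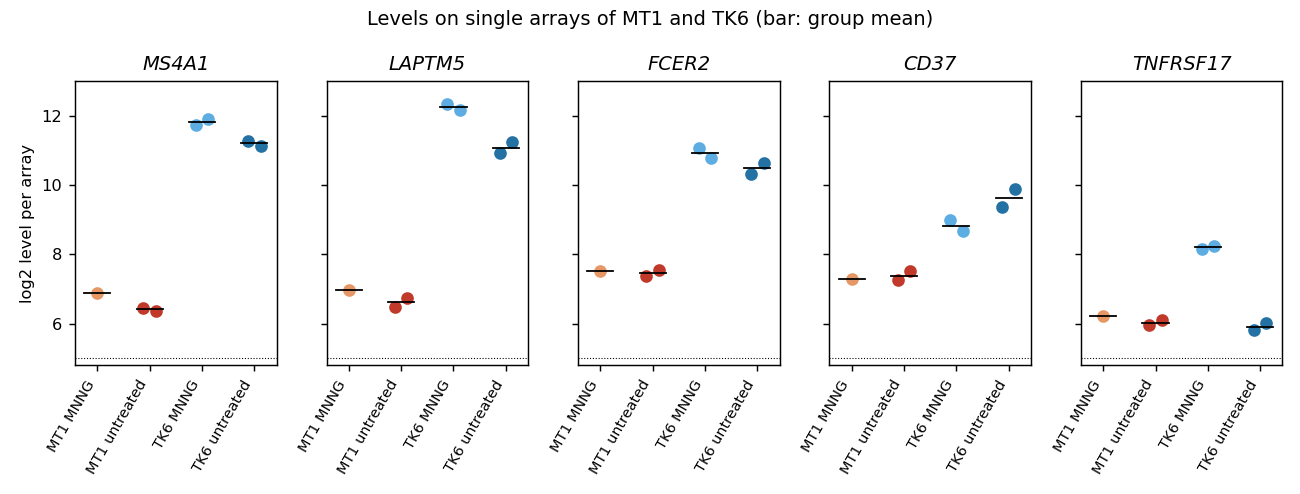
Log2 level on each single array (points; the bar is the group mean) of MS4A1, LAPTM5, FCER2, CD37 and TNFRSF17 in MT1 and TK6 after MNNG and untreated, with 1 kept MNNG array for MT1. MS4A1, LAPTM5, FCER2 and CD37 are lower on each MT1 array than on each TK6 array, and TNFRSF17 is higher only on the TK6 MNNG arrays.

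Other genes of B-cell biology were counted in lists written with earlier results of these data known. Of 34 tested genes for other B-cell surface proteins, 3 were higher and 16 lower in MT1, where 13.6% of all genes were higher and 11.7% lower, with SLAMF6 (-2.57) and the chemokine receptor CXCR4 (-2.36) the lowest and the adhesion receptor CD44 (2.52) and SLAMF1 (1.08) the highest. Of 15 B-cell transcription factors 2 were higher and 7 lower, with IRF8 at -3.24 and POU2F2, an octamer-binding factor, at -1.12, while IKZF3 was at 0.60 and MEF2C at 0.34. Of 16 surface proteins of activated B cells 4 were higher and 3 lower, with the costimulators CD80 at 1.95 and CD86 at 1.07, and SLC3A2 at -1.15 and ENTPD1 at -0.87. Of 14 ligands and partners of the 10 proteins none was higher and 3 were lower, among them the BAFF and APRIL receptor TNFRSF13B (-1.95) and the adaptor TRAF5 (-1.35). Of the B-cell identity markers, CD79A was at 10.36 in MT1 and 10.29 in TK6, and PAX5 at 9.94 in MT1 and 9.75 in TK6. CD79B was lower in MT1, at 7.43 against 8.66 in TK6, and so was CD22, at 7.80 against 9.62. Of 11 tested T and NK markers 2 were lower in MT1, NKG7 (-2.89, limma adjusted p = 8.27e-22) and GNLY (-0.44). Of 7 tested myeloid markers S100A9 was lower (-0.80), and of 7 tested fibroblast and epithelial markers CDH1 was lower (-1.13). Their part in the differences of the 10 genes was not tested.

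After MNNG the mean changes of these genes in the panel ran from -0.36 to 0.35, and TNFRSF17 and CD38 rose while CD37, LAPTM5, FCER2 and MS4A1 fell. By size of change over all genes tested, CD37 was at percentile 97.2, TNFRSF17 at 96.8 and CD38 at 84.2. The others were between 8.4 (CD24) and 62.5 (LAPTM5). Of the 10 genes 6 passed, 2 up and 4 down, where 42.6% of all genes passed, 28.7% up and 13.8% down. The median change was -0.021 over the 10 genes and 0.037 over all genes. The test compared line averages with each line as its own control, over 19 lines.

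TNFRSF17 was at 9.89 to 11.10 in the 19 lines after MNNG (median 10.28), against 9.19 to 10.96 untreated (median 9.89). The groups overlapped, but TNFRSF17 was up in 19 of 19 lines, by 0.35 ± 0.038 on average (log2 ± SE, limma adjusted p = 2.42e-07), from 0.14 in line 10 to 0.75 in line 23. Its mean change was 0.42 without replicate 1 and 0.28 without replicate 2. Untreated TNFRSF17 was higher on replicate 2 than on replicate 1 in 8 of 26 lines, with a median difference of -0.21. The panel kept 17 MNNG arrays of replicate 1 and 10 of replicate 2, and the part of this imbalance in the change was not tested. With the 22 MNNG arrays that were left out included, the TNFRSF17 change was -1.26 and passed the other way (limma adjusted p = 0.00128). CD38 was at 5.80 to 9.50 after MNNG (median 7.53), against 5.62 to 9.40 untreated (median 7.33), and rose by 0.20 ± 0.038 (limma adjusted p = 0.000182, up in 17 of 19 lines). With arrays centred on their medians the CD38 change was 0.089 and did not pass.

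CD37 was at 8.94 to 10.49 after MNNG (median 9.66), against 9.27 to 10.79 untreated (median 9.91). The CD37 change was -0.36 ± 0.043 (limma adjusted p = 7.03e-07), down in 19 of 19 lines, with the largest drop in line 17 (-0.81). Line 17 kept only its MNNG array of replicate 2. CD37 also differed between duplicates of a condition: the untreated replicate 2 was higher than replicate 1 in 19 of 26 lines, by 0.47 at the median, and the panel kept 17 MNNG arrays of replicate 1 and 10 of replicate 2. Without replicate 1 the CD37 change was -0.54, and without replicate 2 it was -0.19, and both passed.

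LAPTM5 was at 11.99 to 12.76 after MNNG (median 12.34), against 12.13 to 12.72 untreated (median 12.42), a change of -0.12 ± 0.032 (limma adjusted p = 0.00518, down in 17 of 19 lines). Untreated LAPTM5 was higher on replicate 2 than on replicate 1 in 20 of 26 lines, by 0.092 at the median. The panel kept 17 MNNG arrays of replicate 1 and 10 of replicate 2, and the part of this imbalance in the LAPTM5 change was not tested. FCER2 was at 8.36 to 11.31 after MNNG (median 10.58), against 8.14 to 11.42 untreated (median 10.62), a change of -0.11 ± 0.031 (limma adjusted p = 0.00501, down in 17 of 19 lines). The FCER2 call was lost without replicate 2 (-0.025, limma adjusted p = 0.700), and its untreated replicate 2 was higher than replicate 1 in 20 of 26 lines. Its other probe set fell by 0.26 and was down in 19 of 19 lines.

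MS4A1 was at 11.47 to 12.62 after MNNG (median 12.43), against 11.55 to 12.71 untreated (median 12.51), a change of -0.067 ± 0.021 (limma adjusted p = 0.0140, down in 15 of 19 lines). Without replicate 1 it was -0.056 and did not pass (limma adjusted p = 0.0515). A pair of other MS4A1 probe sets gave -0.24 and -0.25 and passed, and the last gave -0.015 and did not. Of all probe sets 41.8% passed in this comparison.

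CD53 (0.020), CD24 (0.013), CR2 (0.059) and CD27 (-0.054) did not pass, and with 19 lines their standard errors were 0.021 to 0.064. The CD53 probe sets disagreed: the one used as the gene's value gave 0.020, while another of its 3 gave -0.46 ± 0.078 (limma adjusted p = 4.14e-05, down in 16 of 19 lines), and the mean of all its probe sets gave -0.17 and passed (limma adjusted p = 0.000176). The median array intensity was 45.5 in the panel's MNNG arrays and 42.5 in its untreated arrays, and its part in these changes was not tested.

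**Figure D4:**
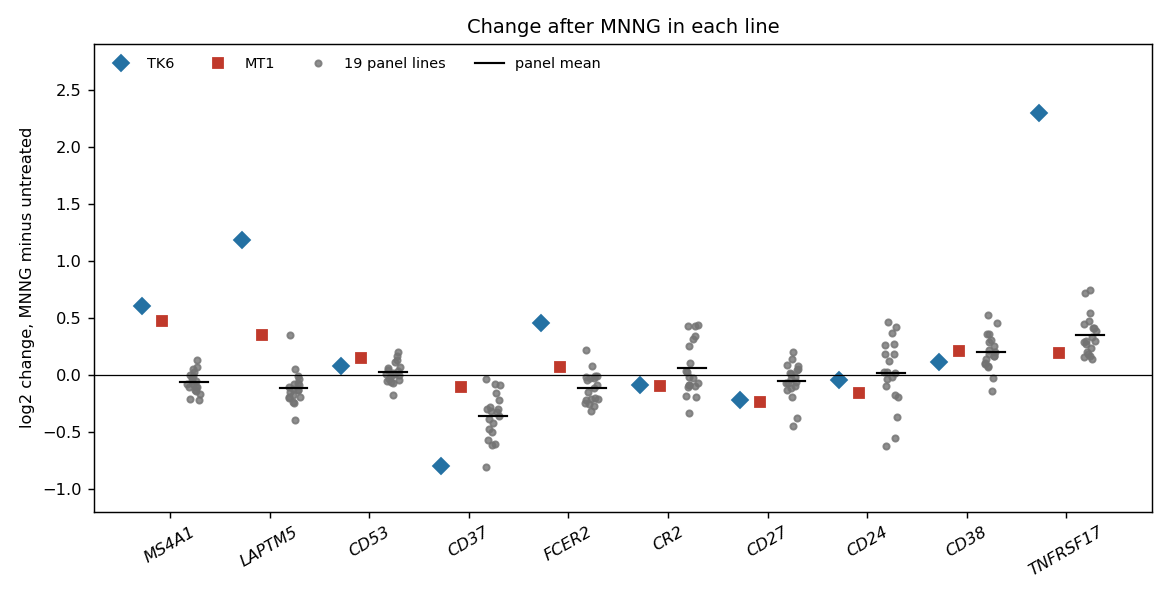
Change after MNNG (log2, MNNG minus untreated, vertical axis) of the 10 genes in TK6 (blue diamonds), MT1 (red squares) and 19 panel lines (grey points, with the bar at their mean). TNFRSF17 changed by at least 2.30 in TK6, 0.19 in MT1 and 0.14 to 0.75 in the panel, and CD37 was below 0 in TK6 and in each panel line.

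TK6 changed more, and in part the other way. TNFRSF17, LAPTM5 and MS4A1 rose in TK6 after MNNG and CD37 fell, so 4 of 10 passed, 3 up and 1 down, where 41.2% of all genes passed, 21.6% up and 19.5% down. The median was 0.093 over the 10 genes and -0.029 over all genes. TNFRSF17 read 8.16 and 8.25 after MNNG, against 5.82 and 6.01 untreated, a change of 2.30 ± 0.13 (limma adjusted p = 9.11e-19), which starts near the bottom of the scale and is a lower bound. Its intensities were 282 and 274 after MNNG, against 31.0 and 34.9 untreated.

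LAPTM5 read 12.34 and 12.16 in TK6 after MNNG, against 10.91 and 11.23 untreated, a change of 1.18 ± 0.093 (limma adjusted p = 5.35e-14), and its other probe set gave 1.08. MS4A1 read 11.73 and 11.89 after MNNG, against 11.28 and 11.14 untreated, a change of 0.60 ± 0.060 (limma adjusted p = 3.45e-11). The MS4A1 probe sets disagreed here, with 0.77 passing and -0.013 and 0.050 not, where 36.2% of all probe sets passed, and with arrays centred on their medians the change was 0.29 and did not pass. CD37 read 8.98 and 8.66 after MNNG, against 9.37 and 9.88 untreated, a change of -0.80 ± 0.27 (limma adjusted p = 0.0130). The CD37 change was -0.39 without replicate 2 and did not pass, and -1.22 without replicate 1. With arrays centred on their medians it was -1.01 and did not pass (limma adjusted p = 0.0533). The TK6 change lay above that of all 19 panel lines for MS4A1, LAPTM5, FCER2 and TNFRSF17, and so did the MT1 change for MS4A1 and LAPTM5, positions that were not tested. With every MNNG array included the TK6 change of TNFRSF17 was 2.13 and did not pass (limma adjusted p = 0.939). FCER2 was at 0.46 in TK6 (limma adjusted p = 0.0576), and CR2, CD27, CD24, CD38 and CD53 were between -0.22 and 0.11 and did not pass.

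MT1 had 1 MNNG array, whose spread was assumed to be that of the other groups. MS4A1 read 6.88 on it, against 6.45 and 6.37 untreated, a change of 0.47 ± 0.073 (limma adjusted p = 8.61e-05), and was the only one of the 10 that passed, where 3.56% of all genes did, 2.36% up and 1.21% down. The other 3 MS4A1 probe sets gave 0.33, 0.34 and 0.12 and did not pass. The MS4A1 call was lost with the MT1 and TK6 arrays alone (limma adjusted p = 0.291) or with arrays centred on their medians (limma adjusted p = 0.578). LAPTM5 read 6.96 after MNNG, against 6.49 and 6.74 (limma adjusted p = 0.0841).

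The difference between the responses of TK6 and MT1 was tested itself. For TNFRSF17 it rests on the TK6 change, which is a lower bound. It was 2.10 ± 0.20 for TNFRSF17 (TK6 change minus MT1 change, limma adjusted p = 4.04e-11) and 0.84 ± 0.15 for LAPTM5 (limma adjusted p = 2.07e-05), so 2 of 10 passed, both higher in TK6, where 24.7% of all genes passed, 12.2% higher and 12.5% lower. For LAPTM5 the call was lost on the values as deposited (0.47, limma adjusted p = 0.0657) and with arrays centred on their medians (0.71, limma adjusted p = 0.336). With every MNNG array included the TNFRSF17 difference was 1.74 and did not pass (limma adjusted p = 0.835). MS4A1 was at 0.13 and did not pass, although its probe sets disagreed, with 0.64 passing (limma adjusted p = 0.00342) and -0.34 and -0.30 not, and CD37 was at -0.70 ± 0.42 and did not pass. The median array intensity was 39.4 and 29.8 in TK6 after MNNG and 29.0 and 26.8 in untreated TK6, and 44.9 in MT1 after MNNG and 37.8 and 21.3 in untreated MT1, and its part was not tested.

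Between panel lines the response differed for CD24 and CR2 in limma's F test, 2 of 10 genes where 6.13% of all genes passed. CD24 read 7.81 after MNNG in line 1, against 8.54 and 8.34 untreated, and 7.97 after MNNG in line 4, against 7.53 and 7.48 untreated. Its changes ran from -0.62 in line 1 to 0.47 in line 4 (range 1.09, adjusted p = 2.31e-05), and 3 of its 6 probe sets passed, against 3.65% of all probe sets. CR2 read 8.72 after MNNG in line 13, against 9.06 and 9.05 untreated, and 10.19 and 10.33 after MNNG in line 9, against 9.77 and 9.88 untreated. Its changes ran from -0.34 in line 13 to 0.43 in line 9 (range 0.77, adjusted p = 0.00191). Both calls were lost without either replicate and on the values as deposited. The MNNG array of line 1 was of replicate 1 and that of line 4 of replicate 2. The other 8 genes had ranges of 0.35 to 0.77 and did not pass, but a CD53 probe set other than the one that stands for the gene had a range of 1.64 and passed (limma adjusted p = 0.000775).

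The change of TNFRSF17 stood beside those of other plasma cell and B-cell genes. Of 13 tested plasma cell markers, a list that holds CD38, TNFRSF17 and CD27, 11 rose and 1 fell in the panel, where 28.7% of all genes rose and 13.8% fell, with the plasma cell regulator PRDM1 up by 0.57 in 19 of 19 lines and IRF4 at -0.39. In TK6, where 21.6% of all genes rose and 19.5% fell, 6 of the 13 rose and 3 fell. PRDM1 changed by 2.25 from 5.83 untreated, which is near the bottom, so this is a lower bound. MZB1, a chaperone of antibody assembly, changed by -2.72 and XBP1, a secretory regulator, by -1.18. PRDM1 also differed in response between TK6 and MT1, by 2.13 (limma adjusted p = 7.53e-14), a value that rests on that bound. Among ligands and partners, the BAFF gene TNFSF13B rose by 0.31 in the panel (18 of 19 lines) and by 1.28 in TK6, and its receptor TNFRSF13C was at -0.24 in the panel and -1.52 in TK6. Of 14 other tetraspanins 4 rose and 3 fell in the panel, the first close to the share over all genes, with CD81 at -0.18 and CD9 at 0.16, and 3 rose and 3 fell in TK6, with CD82 at 1.53. Of 15 B-cell transcription factors 2 rose and 7 fell in the panel, with SPI1 (PU.1) at -0.34 in 19 of 19 lines, and in TK6 6 rose and 7 fell, with POU2F2 at 1.32 and EBF1 at -1.03. Of 11 T and NK markers the cytotoxic gene PRF1 changed by 2.28 and NKG7 by -1.16 in TK6, and of 7 myeloid markers ITGAM changed by 2.27, and their part in the changes of the 10 genes was not tested.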

How the data were processed

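Biotin-labelled RNA of 26 lymphoblastoid lines was hybridised to arrays with 54675 probe sets. The authors deposited linear intensities from PLIER, which the submitters' processing notes name without a version, and they span 16.0 to 65535. Dose, exposure time and batches are unknown here. The precision is limited by the number of arrays. The members, lists and motifs were chosen with earlier results of these data known.

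From these, log2(intensity + 16) of the deposited values was quantile normalised with limma 3.58.1 in R 4.3.3 over the 82 arrays kept. Of all probe sets, 41097 had a single symbol, 1801 several and 11777 none, and only the first were used. Each gene took its brightest probe set by mean, and the dimmest 30% of genes were dropped. MNNG arrays were left out where AFFX-r2-P1-cre-5_at lay over 2 log2 units below AFFX-CreX-5_at.

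Untreated MT1 minus TK6, the MNNG changes of TK6 and MT1, their difference and the F tests between lines came from a model with a mean per group on single arrays (eBayes with trend), and the panel's change from line averages with line as a block. Correlations used Python 3.11.15 with numpy 2.4.6. The named genes were the 10 members, the 3 most alike genes of each, of which at least 1 is given, and up to 2 called genes with the largest change each way per list. The analysis was tested on simulated data. Alternatives were pseudocounts of 1 and 64, no normalisation, centring on array medians, other filters, other probe set rules, every array with none left out, a replicate block, no line block, MT1 and TK6 alone, and fits without 1 replicate or 1 line. The bottom level of 6 and the relation to array medians were chosen after the data were seen. Some genes of the lists are not analysed here.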

Additional observations from a re-analysis of the deposited data

Results flagged for a closer look

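The response to MNNG differed between TK6 and MT1 by a test of the difference itself for TNFRSF17, by 2.10 log2 units (TK6 change 2.30, MT1 change 0.19, limma adjusted p = 4.04e-11), and for LAPTM5, by 0.84 (TK6 change 1.18, MT1 change 0.35, limma adjusted p = 2.07e-05). The MT1 side rests on 1 MNNG array, and the TK6 change of TNFRSF17, which starts near the bottom of the scale, is a lower bound. Between panel lines the response differed by limma's F test for CD24, with a range of 1.09 over 19 lines (adjusted p = 2.31e-05), and for CR2, with a range of 0.77 (adjusted p = 0.00191).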

How the results depend on the processing

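Over all alternatives 973 single values stayed on the same side, 45 lost and 13 gained a call, and 55 changed sign. Of the counts, 166 stayed equal or close to the main count and 49 moved further from it. Each change of sign and the main changes in counts follow, as log2 values unless given as counts, and the cause was not tested. With every array included 4 of the 10 genes differed between untreated lines (1379 of all genes, against 9421), 2 in MT1 minus TK6 (178), 1 in TK6 (464), 0 in MT1 (14, 8 up and 6 down), 0 in TK6 minus MT1 (126) and 0 in response between lines (290), and 9685 genes passed in the panel (5810 up and 3875 down). Turned values there were TNFRSF17 -1.26 (adjusted p = 0.00128), CD38 -0.16, FCER2 0.041 and LAPTM5 0.0021 in the panel, CD27 0.83, CD37 0.53 and MS4A1 -0.30 in MT1, and CD27 -1.05 and CR2 -0.079 in TK6 minus MT1. The untreated MT1 minus TK6 difference of MS4A1 was -4.74 there with an adjusted p of 0.497. The brightest probe set was chosen again in that fit. Its medians on the kept panel MNNG arrays were 11.40 for LAPTM5 and 9.75 for FCER2, against 12.34 and 10.58 over lines in the main fit. Another probe set may thus stand for these genes there, and their turned values may not compare like with like. Centring on array medians called 8 of 10 between untreated lines, 5 in MT1 minus TK6, 2 in TK6, 0 in MT1 (67 of all genes), 1 in TK6 minus MT1 (1682, 1152 up and 530 down), 1 in response between lines (442), 3 correlated pairs, 2057 genes in MT1 minus TK6 and 3291 in the panel (950 up and 2341 down, against 3978 and 1914). It turned CD53 (-0.26) and FCER2 (-0.16) in MT1, CD53 (-0.18) in TK6, CD27 (-0.053), CD53 (0.071) and MS4A1 (-0.11) in TK6 minus MT1, and CD24 (-0.065), CD53 (-0.16) and CR2 (-0.051) in the panel. On values as deposited the median of all genes moved to 0.13 in the panel, 0.31 in MT1 and -0.20 in TK6 minus MT1, and 2 of 10 passed in MT1 (99 genes, 92 up and 7 down), 1 in TK6 minus MT1 (1294), 0 in response between lines (79), 3623 genes in TK6 and 1591 in MT1 minus TK6. It turned CD24 (0.19), CD27 (0.22), CD37 (0.12) and CR2 (0.21) in MT1, CD24 (-0.11), CD27 (-0.30), CR2 (-0.17) and MS4A1 (-0.35) in TK6 minus MT1, CD24 (0.076) and CR2 (0.040) in TK6, CD53 (-0.0076) in the panel and CR2 (0.0034) in MT1 minus TK6. The mean of all probe sets called 1 of 10 in response between lines and turned CD37 (0.042), CD53 (-0.0036) and CR2 (0.010) in MT1, CR2 (-0.032) in TK6 minus MT1, CD53 (-0.024) in TK6, CD24 (-0.0093) and CD53 (-0.17) in the panel and CR2 (0.016) in MT1 minus TK6. A pseudocount of 1 called 2 of 10 in MT1, and 64 called 3 of 10 in TK6 minus MT1 and turned CD24 in the panel (-0.0053). Leaving out 50% of genes called 5 of 10 in TK6. With the MT1 and TK6 arrays alone 0 of 10 and 0 genes passed in MT1, 1 of 10 (1915) in TK6 minus MT1 and 2225 genes in MT1 minus TK6. With no line block 2 of 10 and 2097 genes passed in the panel.

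Leaving out replicate 1 or 2 wherever a group had both, 3 genes each passed in response between lines (0 of 10), 2195 to 2287 in MT1 minus TK6, and 212 to 326 in MT1 (1 to 2 of 10). Values that changed sign ran from -0.011 to 0.15 for FCER2, -0.53 to 0.053 for CD27 and -0.24 to 0.028 for CD37 in MT1, -0.30 to 0.10 for CD38, -0.33 to 0.36 for CD27 and -0.084 to 0.091 for CR2 in TK6 minus MT1, -0.37 to 0.20 for CD27 in MT1 minus TK6, -0.070 to 0.29 for CD38 in TK6 and -0.023 to 0.048 for CD24 in the panel. Leaving out each line in turn kept 6 of 10 in the panel, with CD24 turned to between -0.012 and -0.00088 by 5 of them. Replicate numbers did not pair samples: the deviations of same-numbered arrays correlated at -0.62 to 0.14 over 9 lines, above 0.1 in 2. With the replicate number as a block (replicate block) FCER2 passed in TK6 (0.46), its panel change was -0.043 and did not pass, CD24 turned in the panel (-0.0043) and FCER2 in MT1 (-0.0100), and 740 genes passed in MT1. Depth is not given by intensities, and genes near the bottom have only bounds.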

Other observations

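Germinal centre genes, a list that holds CD38, varied widely in the untreated panel: all 7 that were tested passed the F test, as 68.1% of all genes did, with a median range of 3.09 log2 units, against 0.80 over all genes, and the signalling regulator RGS13 had a range of 5.42. After MNNG 2 rose and 1 fell in the panel, the shares seen over all genes (28.7% and 13.8%), with RGS13 at 0.17 (limma adjusted p = 0.0250, up in 16 of 19 lines) and LMO2 at -0.13 (limma adjusted p = 0.0204, down in 15 of 19 lines). In TK6 only MYBL1, a transcription factor, passed, at 1.76, and its response differed from that of MT1 by 1.58 (limma adjusted p = 1.67e-07).

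The 21 panel MNNG arrays that were left out stood apart in several of the 10 genes, on levels normalised with every array included. MS4A1 had a median of 6.20 on them (5.28 to 12.73), against 12.28 on the 27 panel MNNG arrays kept (11.28 to 12.52). TNFRSF17 had a median of 5.28 on them (5.14 to 11.43), against 10.10 on the arrays kept (9.70 to 10.93). CD27 was at 7.01 against 9.36 and CD38 at 5.51 against 7.53, while CD53 was at 12.38 against 11.76 and CR2 at 9.51 against 9.41.

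Line 4 had the highest change after MNNG of the 19 panel lines for MS4A1 (0.13), CD24 (0.47), CD27 (0.20) and LAPTM5 (0.34), from 1 MNNG array. Line 17, also with 1, had the lowest for CD37 (-0.81), CD53 (-0.18) and CD27 (-0.45). In both lines this array was of replicate 2, while every other panel line with 1 MNNG array kept replicate 1. The line and the replicate number therefore cannot be told apart in these positions.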
